A study of Mus musculus with 12 samples.

Results

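Photoconverted CD8+ T cells, taken either from a melanoma or from the lymph node that drains it, were compared with splenic CD8+ T cells of tumor-bearing mice. In 12 RNA-seq libraries, the average of the egressed and tumor-retained group means was tested against spleen in 1 model of 3 groups, and genes that passed and lay on 1 side of spleen in both photoconverted groups are called shared here. Of 48397 gene symbols counted, 21457 were tested and 421 passed at an adjusted p under 0.05, which is 1.96% of the tested genes. Shared genes numbered 132 higher than spleen, against 0.62% of all tested genes called higher, and 287 lower, against 1.34% called lower. The rule itself set the direction of these genes in this contrast, so the values below that come from it describe the shared set. Only 2 genes passed with the photoconverted groups on opposite sides of spleen, Dapl1 and Por.

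All mice were Kaede-Tg, that is, transgenic for Kaede, a fluorescent protein that turns from green to red under violet light, and carried YUMMER1.7 tumors, a transplantable mouse melanoma line. Tumors were illuminated on day 11 and organs were taken on day 12, so a red cell had been in the tumor at the time of illumination. Egressed libraries (n = 4) hold red CD44+ CD8+ T cells sorted from the tumor-draining lymph node, tumor-retained libraries (n = 4) hold red CD44+ CD8+ T cells sorted from the tumor, and spleen libraries (n = 4) hold CD44+ CD8+ T cells, with no gate on color in the labels. The submitters describe the spleen cells as circulating effector cells and state that the tissues came from 4 mice. Age and sex of the mice were not stated. Organ, color gate, illumination of the cells and exposure to the tumor change together between spleen and the photoconverted groups and cannot be told apart. Preparation of the cells goes with the organ, and its part in the differences, those of early and stress genes included, was not tested.

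CD44 is carried by antigen-experienced T cells. When such a cell meets its antigen, receptor signals pass through MAP kinases, calcium and NF-kappa-B, and within minutes to hours induce early genes, many of which encode transcription factors (AP-1, Egr and Nr4a families) or feedback inhibitors of the same pathways. With repeated stimulation in tumors, CD8+ T cells are known to gain inhibitory receptors and effector genes and to lose genes of naive, memory and stem-like cells, among them the receptors that guide cells into and out of lymph nodes.

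Library totals ranged from 22734926 to 36291712 counts, and 3 counts, the limit that a count of 0 allows, corresponded to 0.0827 to 0.132 CPM, the counts of a gene per 1000000 counts of its library. The defining transcripts of the sorted cells were present in all libraries, with Cd8a at 879 to 1031 CPM in spleen, 837 to 1077 CPM in egressed and 649 to 1146 CPM in tumor-retained libraries. Cd4 was at most 0.572 CPM in spleen, 2.49 in egressed and 3.86 in tumor-retained libraries. Markers of macrophages and monocytes (18 tested genes, Lyz2 and Csf1r among them) summed to 177 to 255 CPM in spleen, 151 to 272 CPM in egressed and 176 and 247 CPM in tumor-retained libraries 1 and 2, and to 15780 and 7331 CPM in tumor-retained libraries 3 and 4. Stromal and endothelial markers (13 tested genes) summed to 256 to 277 CPM in spleen and 189 to 242 CPM in egressed libraries, and to 5624 and 2885 CPM in those libraries. Markers of melanoma cells summed to at most 44.2 CPM in any library. Genes with a count numbered 30658 to 32165 in spleen, while egressed libraries 3 and 4 and tumor-retained library 1 had 14927 to 15296. Without tumor-retained libraries 3 and 4, 112 of 132 higher and 176 of 287 lower genes still passed, and without the 3 libraries with the fewest genes 125 and 246 did. In bulk samples, fewer cells that express a gene and less RNA per cell cannot be told apart.

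The shared genes were not equally far from spleen in both photoconverted groups. The median log2 fold change of the 132 higher genes was 1.10 in egressed and 2.28 in tumor-retained cells, and that of the 287 lower genes was -0.89 and -1.17, beside -0.13 and -0.15 over all tested genes. Tested alone, egressed cells passed at 41 of the higher and 35 of the lower genes (0.368% of tested genes called), and tumor-retained cells at 118 and 185 (2.41% called). Both contrasts use the same spleen libraries. At 16 higher and 59 lower genes the nearer group lay within 0.5 log2 units of spleen, and that group was the egressed one at 12 and 50 of them. Shown per library, all 8 photoconverted libraries lay above all 4 spleen libraries at 90 of the higher genes, where 0.816% of tested genes did, and below at 246 of the lower genes, where 3.68% did.

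**Figure D1:**
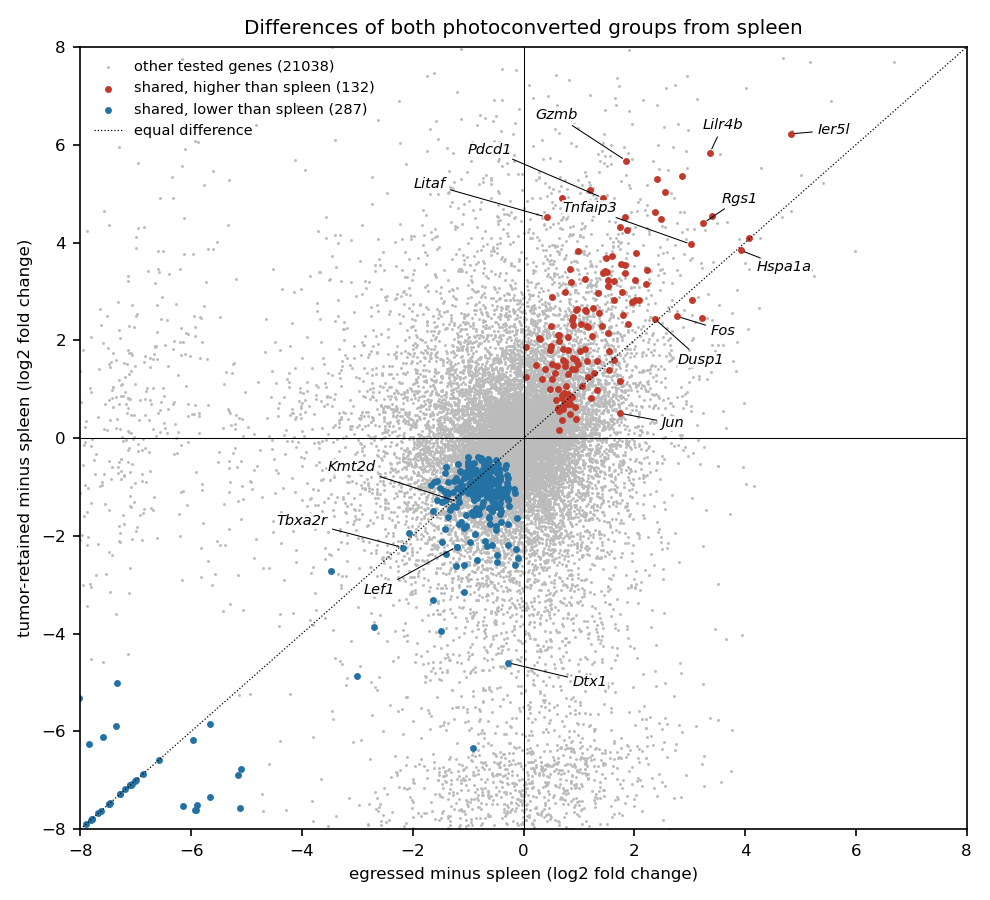
Log2 fold change from spleen of egressed cells (horizontal axis) and tumor-retained cells (vertical axis) for each tested gene, with shared genes in color and the dotted line at equal differences. Most red points lie above the dotted line, as Gzmb and Litaf do, while Fos, Dusp1 and Hspa1a lie close to it. Outside the axes fall 23 shared genes and 271 tested genes in all, and both axes share the spleen libraries.

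The calls leaned on the spleen libraries, of which there were 4 against 8. Without spleen library 1, 2, 3 or 4 the number of changed genes was 120, 137, 134 or 164, against 421 with all libraries. In all, 54 of the higher and 61 of the lower genes passed whichever of the 12 libraries was left out. The 3 tissues came from 4 mice and carry the same library numbers, and with this number as a block for the mouse 180 genes passed, of which 73 were shared and higher and 106 shared and lower. Scaling moved the balance of directions, with 184 shared genes higher and 145 lower under median-of-ratios size factors, while the median log2 fold change of all tested genes shifted from -0.19 to -0.02. Under scaling by library size alone 152 were higher and 205 lower. Of 103 named genes followed through the 24 alternative analyses, none changed direction.

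Of 20 tested AP-1 and immediate early genes 5 were shared and higher and none lower, and tested alone egressed cells passed at 3 and tumor-retained cells at 5 higher genes and 1 lower gene. The list's median log2 fold change was 1.28, beside -0.19 for all tested genes. Without tumor-retained libraries 3 and 4 these medians were 0.84 and -0.46. Fos, the AP-1 subunit that pairs with Jun proteins, stood at 110.3, 113, 166 and 132 CPM in the 4 spleen libraries, at 928, 1121, 672 and 838 CPM in the egressed libraries and at 849, 748, 494 and 839 CPM in the tumor-retained libraries. All photoconverted libraries lay above spleen, and those of lymph node and tumor shared a range (log2 fold change 2.63 ± 0.21 (SE), adjusted p = 0.00011). Ier5l, a relative of the immediate early gene Ier5, was low in spleen (0.858, 0.314, 2.03 and 1.02 CPM) and reached 42.8, 30, 34.8 and 12.6 CPM in egressed and 107, 70.4, 65.9 and 74 CPM in tumor-retained libraries (log2 fold change 5.52 ± 0.60 (SE), adjusted p = 0.00073). All 8 photoconverted libraries again lay above spleen. Fosl2, a further AP-1 subunit, rose from 7.54 ± 0.385 CPM (SD, n = 4) in spleen to 30.7 ± 17.1 in egressed and 104 ± 28.6 in the tumor-retained group (log2 fold change 2.91 ± 0.44 (SE), adjusted p = 0.0053), with egressed library 3 close to spleen at 8.14 CPM.

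Jun and Egr1 passed as well but their groups overlapped. Jun, the partner of Fos, measured 315, 292, 407 and 336 CPM in spleen, 1184, 1448, 955 and 927 in egressed and 297, 345, 557 and 720.0 in tumor-retained libraries, so it was high in the lymph node while tumor-retained libraries 1 and 2 were at the spleen level (log2 fold change 1.12 ± 0.24 (SE), adjusted p = 0.03). Egr1, a zinc finger factor induced through MAP kinases, measured 73.4 ± 9.92 CPM in spleen, 129 ± 75.7 in egressed and 308 ± 85.1 in the tumor-retained group (SD, n = 4; log2 fold change 1.44 ± 0.31 (SE), adjusted p = 0.035). Jun lost its call without spleen 1, 2, 3 or 4 or egressed 1 (adjusted p up to 0.14) and with the mouse block (0.1). Egr1 lost its call without spleen 1, 2, 3 or 4 or tumor-retained 4 (adjusted p up to 0.14), with the mouse block (0.11) and without both tumor-retained libraries 3 and 4 (0.081). The MAP kinase phosphatases, which switch the same kinases off, had 2 of 10 tested members higher and 1 lower, with a list median of 1.64, or 1.01 without tumor-retained libraries 3 and 4. Dusp1 rose from 79.2, 101, 106 and 90.8 CPM in spleen to 585, 714, 367 and 284 CPM in egressed and 496, 408, 362 and 775 CPM in tumor-retained libraries (log2 fold change 2.40 ± 0.29 (SE), adjusted p = 0.0014). Its photoconverted libraries all exceeded spleen and those of lymph node and tumor covered the same range. Dusp5, a nuclear phosphatase of ERK, rose from 33.7 ± 6.3 to 136 ± 35.6 and 240.5 ± 74.5 CPM (log2 fold change 2.42 ± 0.26 (SE), adjusted p = 0.00069), and Dusp7 fell (log2 fold change -1.56 ± 0.33 (SE), adjusted p = 0.031). Dusp7 lost its call without spleen 1, 2, 3 or 4 or egressed 2 or 4 or tumor-retained 4 (adjusted p up to 0.12) and with the mouse block (0.1).

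**Figure D2:**
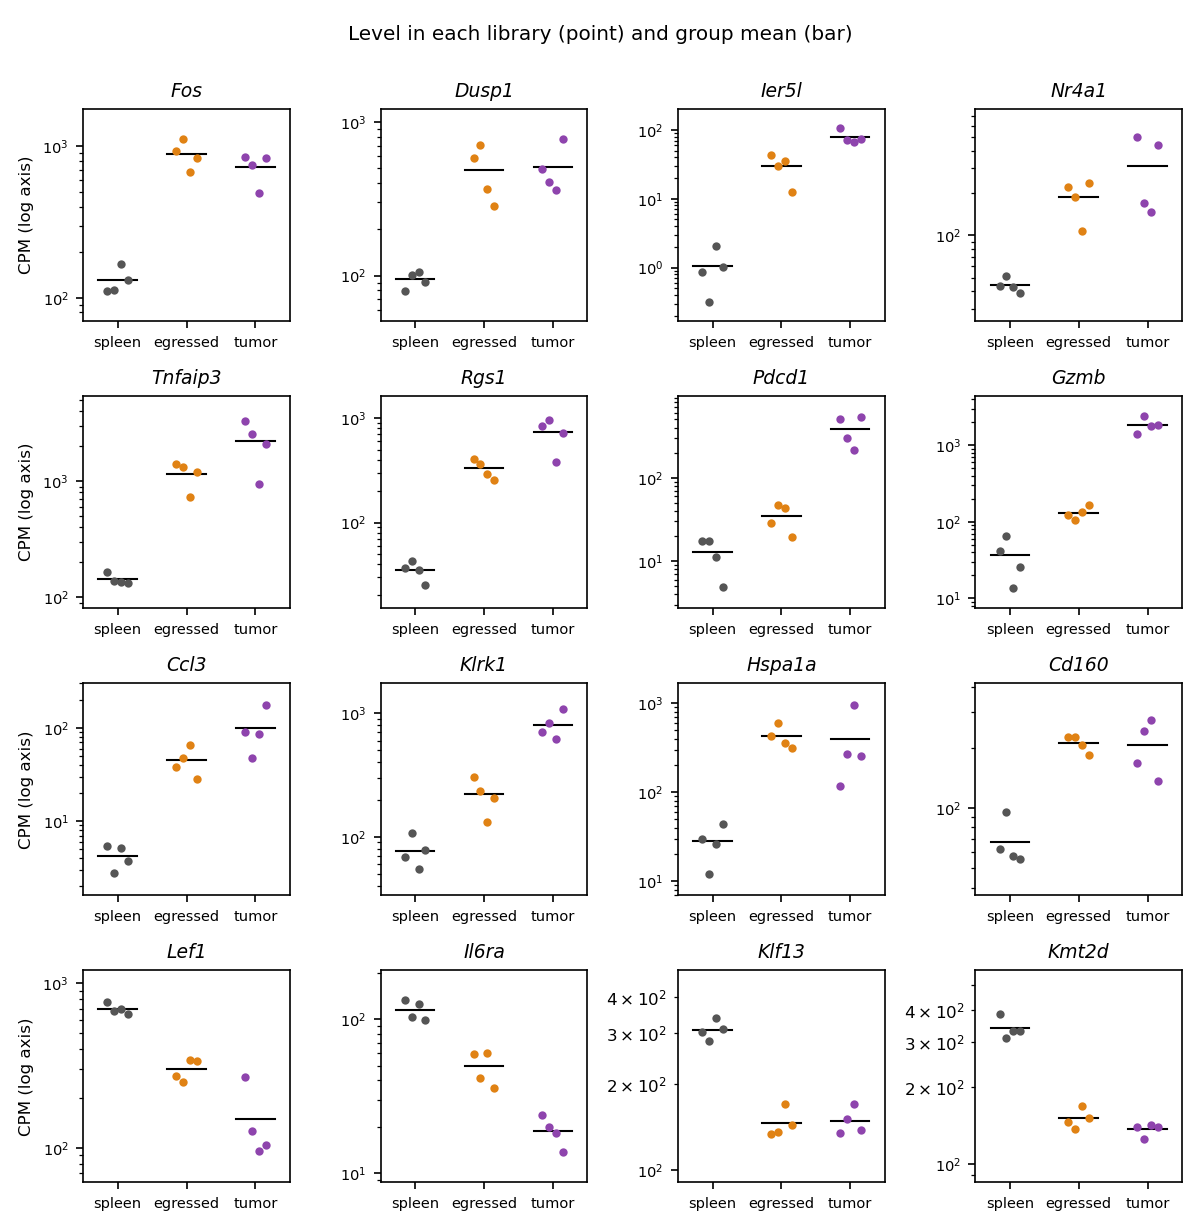
CPM on a log axis in each of the 12 libraries for 16 genes, with 1 point per library and a bar at the group mean. In the first 12 panels all photoconverted libraries lie above spleen. The egressed and tumor-retained points overlap for Fos, Dusp1, Hspa1a and Cd160 and are apart for Gzmb, Pdcd1 and Klrk1. In the last 4 panels all lie below spleen.

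Promoters of 6 higher genes are shown as examples, each with a match to a motif that is counted below. Each is the 150 bases before the RefSeq gene start (GRCm38.p6), read 5′ to 3′ on the gene's strand, with the match in capitals. Dusp1 (chr17:26508473-26508622, minus strand) holds a cAMP response element, TGACGTCA. Nfkbia (chr12:55492648-55492797, minus strand) and Tnfaip3 (chr10:19015411-19015560, minus strand) hold kappa B motifs. Gzmb (chr14:56262335-56262484, minus strand) holds an AP-1 motif, TGANTCA, and Hspa1a (chr17:34972157-34972306, minus strand) and Hspa1b (chr17:34959239-34959388, minus strand) hold a heat shock element, GAANNTTC.
Dusp1: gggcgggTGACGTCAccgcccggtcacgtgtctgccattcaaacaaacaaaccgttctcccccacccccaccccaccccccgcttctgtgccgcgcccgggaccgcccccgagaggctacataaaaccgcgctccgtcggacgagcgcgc
Nfkbia: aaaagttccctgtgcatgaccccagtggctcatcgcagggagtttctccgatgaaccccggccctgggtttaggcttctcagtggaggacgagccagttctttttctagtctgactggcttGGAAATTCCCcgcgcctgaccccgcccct
Tnfaip3: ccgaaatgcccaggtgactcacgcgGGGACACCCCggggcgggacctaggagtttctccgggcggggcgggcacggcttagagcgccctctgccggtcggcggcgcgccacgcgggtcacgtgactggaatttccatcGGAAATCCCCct
Gzmb: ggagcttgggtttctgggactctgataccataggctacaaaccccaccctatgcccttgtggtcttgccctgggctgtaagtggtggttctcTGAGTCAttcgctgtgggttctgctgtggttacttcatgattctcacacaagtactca
Hspa1a: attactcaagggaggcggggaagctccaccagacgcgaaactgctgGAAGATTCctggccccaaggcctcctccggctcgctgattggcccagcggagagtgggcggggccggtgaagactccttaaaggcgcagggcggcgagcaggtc
Hspa1b: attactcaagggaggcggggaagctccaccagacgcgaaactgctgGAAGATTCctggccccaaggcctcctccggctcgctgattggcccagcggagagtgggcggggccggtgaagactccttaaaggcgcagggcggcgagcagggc

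Motifs were counted on both strands from 250 bases before to 50 after the start, in the first listed promoter of each gene outside chromosome 18, which covered 97 higher, 196 lower and 12733 tested genes. The AP-1 motif was in 13 of the higher promoters (13.4%), in 5.61% of the lower and in 6.03% of all. Besides Gzmb and Tnfaip3, its carriers included Klrk1, Klrc2, Bcl2a1d, Bcl2a1b and Ctla2a. The heat shock element was in 10.3% of higher, 6.12% of lower and 6.24% of all promoters, and the kappa B motif in 14.4%, 9.69% and 9.71%. Related genes were counted separately, such as Bcl2a1d and Bcl2a1b for AP-1. Hspa1a and Hspa1b both count for the heat shock element and kappa B. The promoters behind these shares are therefore not all independent. The cAMP response element was in 2.06%, 1.53% and 2.89%, and the Nr4a monomer site AAAGGTCA in 0 of 97 higher promoters, 0.51% of the lower and 1.14% of all. The GC box bound by SP and KLF factors, GGGCGG, was in 56.7% of higher, 65.8% of lower and 56.3% of all promoters. The CArG box of serum response factor was in 1.03%, 2.04% and 1.37%. The AP-1, cAMP response element and CArG letters were not found in this window of Fos, Jun or Nr4a1. A match describes the sequence only, and no test was made.

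The list of NF-kappa-B subunits and feedback inhibitors had 4 of 17 tested genes shared and higher (Tnfaip3, Nfkbia, Nfkbiz and Nfkbid) and none lower, with a list median of 0.36. Each of these 4 encodes an inhibitor or a nuclear IkappaB-type regulator, and the inhibitors Nfkbib, Nfkbie, Tnip1, Tnip3 and Cyld, the IkappaB family gene Bcl3 and all 5 subunits did not pass. Tnfaip3, which encodes the ubiquitin-editing enzyme A20, measured 166, 137, 136 and 132 CPM in spleen, 1399, 1321, 724 and 1206 CPM in egressed and 3291, 2568, 939.6 and 2112 CPM in tumor-retained libraries. Every photoconverted library exceeded every spleen library several times over (log2 fold change 3.49 ± 0.32 (SE), adjusted p = 0.00036). Nfkbia, the classical cytoplasmic inhibitor, measured 268, 304, 366 and 314 CPM in spleen, 695, 791, 434 and 565 in egressed and 801, 694, 914 and 1171 in tumor-retained libraries (log2 fold change 1.25 ± 0.19 (SE), adjusted p = 0.0051). Nfkbiz rose from 110.3 ± 16.9 to 319.9 ± 73 and 288 ± 82.7 CPM (log2 fold change 1.46 ± 0.20 (SE), adjusted p = 0.0036). Nfkbid passed more narrowly (log2 fold change 1.21 ± 0.26 (SE), adjusted p = 0.034). Nfkbid lost its call without spleen 1, 2, 3 or 4 or egressed 3 or 4 or tumor-retained 4 (adjusted p up to 0.15) and with the mouse block (0.11). Spleen and photoconverted libraries did not overlap for any of these 4 genes.

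Rgs1, a regulator of G protein signalling that dampens chemokine receptors and is known from tissue-resident T cells, had the smallest p-value in the higher set. It measured 36.2, 42.7, 34.7 and 25.3 CPM in spleen, 404, 366, 295 and 255 CPM in egressed and 849.6, 969, 379 and 729 CPM in tumor-retained libraries. Spleen was far below all 8 photoconverted libraries, and 3 of the 4 tumor-retained libraries were above all egressed ones (log2 fold change 3.82 ± 0.28 (SE), adjusted p = 7.7e-05). Of 8 tested genes of this family 2 were shared, and Rgs2 was the other one (log2 fold change 2.67 ± 0.48 (SE), adjusted p = 0.015), although egressed library 3 was at 49.4 CPM, within the spleen range of 38.2 to 55.3 CPM. Rgs2 lost its call without spleen 1, 2, 3 or 4 (adjusted p up to 0.085). In the list of residency genes 5 of 19 tested members were higher (Rgs1, Rgs2, Cxcr6, Litaf and Bhlhe40) and none lower, with a list median of 1.10. Cxcr6, a chemokine receptor of tissue T cells, averaged 169.9 ± 21.2 CPM in spleen, 206 ± 73.7 in egressed and 698 ± 156 in the tumor-retained group (log2 fold change 1.16 ± 0.22 (SE), adjusted p = 0.021), and Litaf averaged 12.3 ± 5.95, 16.5 ± 5.34 and 283 ± 122 CPM (log2 fold change 2.47 ± 0.38 (SE), adjusted p = 0.0058). For both, the egressed libraries overlapped spleen and only the tumor-retained libraries stood apart. Cxcr6 lost its call without spleen 1, 2, 3 or 4 (adjusted p up to 0.11).

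The Nr4a nuclear receptors, immediate targets of antigen receptor signals that are also known as regulators of T cell exhaustion, all passed in the photoconverted average, and Nr4a1 also in egressed cells alone. Nr4a1 measured 43.6, 51.3, 42.7 and 39 CPM in spleen, 219, 187, 107 and 235 CPM in egressed and 496, 169, 147 and 438 CPM in tumor-retained libraries (log2 fold change 2.45 ± 0.37 (SE), adjusted p = 0.0055). Tumor-retained libraries 2 and 3 lay within the egressed range, and no photoconverted library reached down to spleen. Nr4a2 averaged 11.6 ± 4.88 CPM in spleen, 42.7 ± 23.6 in egressed and 223 ± 89.9 in the tumor-retained group (log2 fold change 3.07 ± 0.47 (SE), adjusted p = 0.0058), and Nr4a3 averaged 4.9 ± 0.919, 14.1 ± 3.96 and 42.2 ± 14.2 CPM (log2 fold change 2.31 ± 0.41 (SE), adjusted p = 0.014). Nr4a3 lost its call without spleen 1, 2, 3 or 4 (adjusted p up to 0.082) and with the mouse block (0.061). Ikzf2 lost its call without spleen 1, 2, 3 or 4 (adjusted p up to 0.084) and with the mouse block (0.061). Cebpb lost its call without spleen 1, 2, 3 or 4 (adjusted p up to 0.12) and with the mouse block (0.096). Of 17 tested exhaustion-associated regulators 7 were shared and higher and none lower (list median 1.30), the others being Bhlhe40, Id2, Ikzf2 and Cebpb. Bhlhe40, a transcription factor of effector and resident cells, measured 12.3, 22, 10.3 and 11.5 CPM in spleen, 88.7, 114, 66.1 and 30.8 in egressed and 357, 618, 396 and 831 in tumor-retained libraries, 3 levels without overlap (log2 fold change 3.85 ± 0.42 (SE), adjusted p = 0.00077). Id2, an inhibitor of E proteins that favors effector differentiation, also stood at 3 levels, with 237 ± 18.7, 412 ± 71.2 and 821 ± 109.6 CPM (log2 fold change 1.30 ± 0.14 (SE), adjusted p = 0.00066).

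Inhibitory receptors dampen T cell signals. Of 15 tested receptors 4 were shared and higher (Pdcd1, Ctla4, Tigit and Cd160) and none lower, with a list median of 0.50. Without tumor-retained libraries 3 and 4 the list median was -0.23, while that of all tested genes moved from -0.19 to -0.46. Pdcd1, which encodes PD-1, measured 17.7, 17.6, 11.3 and 4.84 CPM in spleen, 28.5, 47.7, 42.9 and 19.6 CPM in egressed and 501, 302, 214 and 536 CPM in tumor-retained libraries. The lowest egressed library was just above the highest spleen library and the tumor-retained libraries were far above both (log2 fold change 3.17 ± 0.43 (SE), adjusted p = 0.0034), and egressed cells alone did not pass (log2 fold change 1.43 ± 0.43 (SE), adjusted p = 0.24). Cd160, a receptor for HVEM, had lymph node and tumor libraries in 1 range, with 62.1, 95.6, 57.7 and 55.6 CPM in spleen, 226, 227, 207 and 184 in egressed and 167, 243, 276 and 136 in tumor-retained libraries (log2 fold change 1.62 ± 0.23 (SE), adjusted p = 0.0036). Tigit averaged 2.49 ± 1.75, 8.82 ± 3.32 and 57 ± 18.2 CPM (log2 fold change 3.17 ± 0.57 (SE), adjusted p = 0.015), and Ctla4 averaged 17 ± 5.2, 56.6 ± 45.4 and 340.4 ± 158 CPM (log2 fold change 3.03 ± 0.67 (SE), adjusted p = 0.039). Ctla4 and Ikzf2 are also in the list of CD4 and regulatory T cell markers (11 genes). With both genes included, that list summed to 87.4 to 123 CPM in spleen, 112 to 223 CPM in egressed and 470.3 to 761 CPM in tumor-retained libraries. Part of the rise of this sum is therefore their own. Foxp3 was at up to 5.57, 45.2 and 29.1 CPM in the same order, and the part of CD4 and regulatory T cells in these results was not tested. Tigit lost its call without spleen 2, 3 or 4 (adjusted p up to 0.07). Ctla4 lost its call without spleen 1, 2, 3 or 4 or egressed 1 or tumor-retained 4 (adjusted p up to 0.16) and with the mouse block (0.11). Lilrb4a and Lilr4b are leukocyte immunoglobulin-like receptors, the first with inhibitory motifs, and both rose, by log2 fold changes of 4.11 ± 0.43 (SE) and 4.60 ± 0.55 (SE) (adjusted p = 0.00066 and 0.0013), and Lilrb4a measured 7.72, 11.7, 8.07 and 11.3 CPM in spleen, 90.9, 65.5, 36.5 and 88.3 in egressed and 181, 342, 313 and 753 in tumor-retained libraries. Of 14 costimulatory receptors, Icos (log2 fold change 2.40 ± 0.43 (SE), adjusted p = 0.014) and Tnfrsf18 (log2 fold change 1.14 ± 0.25 (SE), adjusted p = 0.038) were higher and Slamf6 was lower. Icos lost its call without spleen 1, 2, 3 or 4 (adjusted p up to 0.078). Tnfrsf18 lost its call without spleen 1, 2, 3 or 4 or egressed 1 or 3 or tumor-retained 2 or 4 (adjusted p up to 0.16) and with the mouse block (0.12).

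Of 17 tested cytotoxic molecules 6 were shared and higher (Gzmb, Fasl, Srgn, Serpinb9, Serpinb6b and Ctsw) and none lower (list median 0.78). Tested alone, tumor-retained cells passed at 7 and egressed cells at 2 of the 17. Gzmb, the granule protease granzyme B, measured 42.1, 64.6, 13.5 and 25.4 CPM in spleen, 123, 104, 132 and 166 CPM in egressed and 1396, 2401, 1792 and 1846 CPM in tumor-retained libraries. Egressed cells lay between the others without overlap and closer to spleen (log2 fold change 3.76 ± 0.39 (SE), adjusted p = 0.00066), and their own difference from spleen did not pass (log2 fold change 1.85 ± 0.38 (SE), adjusted p = 0.069). Fasl, the ligand of the death receptor Fas, measured 12, 22.8, 11.2 and 13.2 CPM in spleen, 117, 32.8, 65.3 and 115 in egressed and 473, 336, 152 and 364 in tumor-retained libraries (log2 fold change 3.48 ± 0.44 (SE), adjusted p = 0.0021). Srgn, the proteoglycan core of cytotoxic granules, averaged 207 ± 27.5, 321 ± 54.1 and 893 ± 207 CPM (log2 fold change 1.37 ± 0.17 (SE), adjusted p = 0.0017), and Ctsw, a cathepsin of cytotoxic cells, was raised in both, at 1112 ± 156, 2115 ± 168 and 1720 ± 314 CPM (log2 fold change 0.78 ± 0.13 (SE), adjusted p = 0.01). Ctsw lost its call without spleen 1 or 2 (adjusted p up to 0.068) and with the mouse block (0.058). Serpinb9 lost its call without spleen 1, 2, 3 or 4 or egressed 1 or 4 or tumor-retained 4 (adjusted p up to 0.15). Serpinb6b lost its call without spleen 1, 2, 3 or 4 (adjusted p up to 0.065). With the offset for transcript length and GC content described below, Ctsw no longer passed (adjusted p = 0.21).

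Inflammatory chemokines and interferon gamma rose among the 19 tested cytokines, with 3 higher and 2 lower. Ccl3, an inflammatory chemokine, measured 5.46, 2.76, 5.18 and 3.71 CPM in spleen, 38.4, 47.7, 65.9 and 28.5 CPM in egressed and 89.4, 47.3, 85.5 and 175 CPM in tumor-retained libraries (log2 fold change 3.97 ± 0.44 (SE), adjusted p = 0.00082). Its neighbor in function Ccl4 averaged 22.8 ± 4.01, 81.2 ± 24.1 and 267 ± 159.6 CPM (log2 fold change 2.69 ± 0.36 (SE), adjusted p = 0.0032). Spleen was below all photoconverted libraries for both. Ifng averaged 17.1 ± 4.92, 79.9 ± 46.8 and 185 ± 107 CPM (log2 fold change 2.82 ± 0.57 (SE), adjusted p = 0.026), with egressed library 3 at the spleen level. Ifng lost its call without spleen 1, 2, 3 or 4 (adjusted p up to 0.12). With the length and GC offset Ifng did not pass (adjusted p = 0.071). The lower members were Ltb, lymphotoxin beta (log2 fold change -0.63 ± 0.13 (SE), adjusted p = 0.026), and Il16 (log2 fold change -0.79 ± 0.16 (SE), adjusted p = 0.025). Ltb lost its call without spleen 1, 2, 3 or 4 or egressed 2 or 4 (adjusted p up to 0.12) and with the mouse block (0.066). Il16 lost its call without spleen 1, 2, 3 or 4 or egressed 2 or 4 (adjusted p up to 0.11). Ifngr1, a receptor chain for interferon gamma, rose (log2 fold change 1.36 ± 0.27 (SE), adjusted p = 0.024), as did the chemokine receptor Ccr2 (log2 fold change 1.70 ± 0.39 (SE), adjusted p = 0.049), beside Cxcr6, and 3 of 17 tested chemokine receptor genes were shared and higher. Ccr2 is also a receptor of monocytes, whose markers summed to 15780 and 7331 CPM in tumor-retained libraries 3 and 4, and without these its log2 fold change was 1.11. Ifngr1 lost its call without spleen 1, 2, 3 or 4 (adjusted p up to 0.11). Ccr2 lost its call without spleen 1, 2, 3 or 4 or egressed 1, 2, 3 or 4 or tumor-retained 3 or 4 (adjusted p up to 0.19), with the mouse block (0.15) and without both tumor-retained libraries 3 and 4 (0.055). Ifngr1 had an adjusted p of 0.1 with the length and GC offset.

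Receptors shared with natural killer cells formed a further higher group, with 5 of 19 tested members (Klrk1, Klrd1, Klrc1, Klrc2 and Klra7) and none lower, and a list median of 1.97. Klrk1, which encodes the activating receptor NKG2D, measured 68.6, 108, 54.6 and 77.7 CPM in spleen, 307, 234, 132 and 207 CPM in egressed and 699.5, 839, 618 and 1074 CPM in tumor-retained libraries, 3 levels without overlap (log2 fold change 2.45 ± 0.27 (SE), adjusted p = 0.00077). Klrd1 and Klrc1 encode CD94 and NKG2A, which form 1 receptor for the MHC molecule Qa-1. Klrd1 averaged 219.7 ± 10.8, 472 ± 70.8 and 772 ± 206 CPM (log2 fold change 1.46 ± 0.16 (SE), adjusted p = 0.00093) and Klrc1 averaged 47.5 ± 16.7, 160.1 ± 57.6 and 561 ± 149.6 CPM (log2 fold change 2.66 ± 0.31 (SE), adjusted p = 0.0012). Both were above spleen in all 8 photoconverted libraries. Klra7, of the Ly49 family, passed with egressed library 4 at 20 CPM, within the spleen range (log2 fold change 2.62 ± 0.44 (SE), adjusted p = 0.01). Klra7 lost its call without spleen 1, 3 or 4 (adjusted p up to 0.064). Klrc2 lost its call without spleen 1, 2, 3 or 4 or egressed 1 or tumor-retained 3 (adjusted p up to 0.14), with the mouse block (0.057) and without both tumor-retained libraries 3 and 4 (0.057). Klra and Klrc genes have close paralogs, so reads may have been divided among them. The markers of natural killer and gamma delta T cells (7 tested genes) summed to 144 to 203 CPM in spleen, 98 to 249.6 CPM in egressed and 80.8 to 536 CPM in tumor-retained libraries, with Ncr1 at most 1.61, 5.46 and 7.50 CPM, and none of that list was shared. Of the 15 Bcl2 family genes, Bcl2a1d, a survival gene (log2 fold change 3.50 ± 0.37 (SE), adjusted p = 0.00071), its paralog Bcl2a1b and the death-promoting Bcl2l11 (log2 fold change 0.95 ± 0.21 (SE), adjusted p = 0.038) were higher and none lower, and reads of the 2 Bcl2a1 paralogs may also have been divided. Bcl2a1b lost its call without spleen 1, 2, 3 or 4 or egressed 1 or 2 or tumor-retained 2 or 4 (adjusted p up to 0.19), with the mouse block (0.15) and without both tumor-retained libraries 3 and 4 (0.061). Bcl2l11 lost its call without spleen 1, 2, 3 or 4 or tumor-retained 2 or 4 (adjusted p up to 0.17) and with the mouse block (0.062). Its tumor-retained minus egressed log2 difference was 1.825, so its place in the shared set rests on tumor-retained cells.

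**Figure D3:**
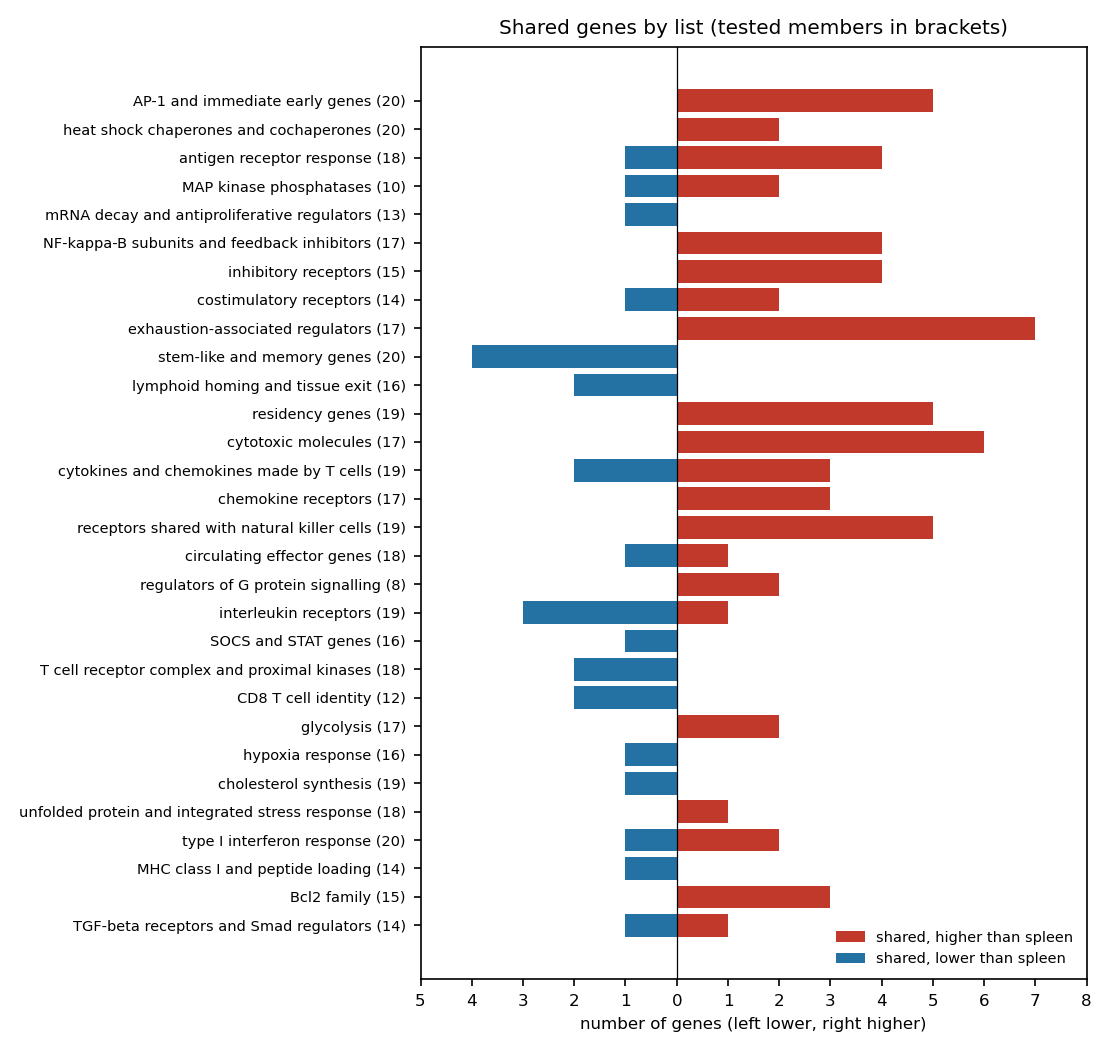
Number of shared genes in each list that had any, higher than spleen to the right and lower to the left, with the number of tested members after the list's name. Exhaustion-associated regulators (7 of 17) and cytotoxic molecules (6 of 17) hold the most higher genes, and stem-like and memory genes (4 of 20) the most lower genes.

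The inducible heat shock genes were higher in both lymph node and tumor. Hspa1a measured 29.6, 12, 26.3 and 44.4 CPM in spleen, 427, 598, 358 and 315 CPM in egressed and 118, 268, 966 and 258 CPM in tumor-retained libraries (log2 fold change 3.88 ± 0.59 (SE), adjusted p = 0.0058). Hspa1b measured 209.7, 90.2, 184 and 315 CPM in spleen, 1694, 1981, 1602 and 1295 in egressed and 732, 856, 3363 and 737 in tumor-retained libraries (log2 fold change 2.94 ± 0.50 (SE), adjusted p = 0.011). All photoconverted libraries exceeded spleen, and tumor-retained library 3 was the highest for both. Hspa1b lost its call without spleen 1 or 3 (adjusted p up to 0.064). They are near-identical copies, with 1 of 150 bases different between the promoters printed above, so the division of reads between them is uncertain. These were the only 2 of 20 tested chaperone genes in the shared set, and the list median was 0.12. Atf4, the transcription factor of the integrated stress response, was higher by a smaller and even step, with 167, 168, 177 and 160.5 CPM in spleen, 305, 273, 263 and 344 in egressed and 282, 281, 271 and 331 in tumor-retained libraries (log2 fold change 0.80 ± 0.11 (SE), adjusted p = 0.0036), and was the only one of 18 in its list. With the length and GC offset its adjusted p was 0.055.

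Other genes with the smallest p-values in the higher set were Ctla2a, a cathepsin inhibitor of activated T cells, Ly6a (Sca-1), Mxd1, a partner of Max that opposes Myc, Odc1, the rate-limiting enzyme of polyamine synthesis, and Tgif1, a repressor of TGF-beta signals. Ctla2a averaged 108 ± 14.6, 395 ± 111 and 539 ± 43.7 CPM (log2 fold change 2.10 ± 0.18 (SE), adjusted p = 0.00021), Ly6a 96.2 ± 12.6, 255 ± 33.9 and 469.6 ± 118 CPM (log2 fold change 1.85 ± 0.17 (SE), adjusted p = 0.00036) and Mxd1 71.6 ± 6.21, 205 ± 31.6 and 671 ± 233 CPM (log2 fold change 2.37 ± 0.22 (SE), adjusted p = 0.00036). Odc1 averaged 74.3 ± 3.1, 232 ± 68.6 and 689 ± 220.1 CPM (log2 fold change 2.43 ± 0.24 (SE), adjusted p = 0.00056) and Tgif1 42.4 ± 5.5, 78.8 ± 7.53 and 210.2 ± 34 CPM (log2 fold change 1.60 ± 0.16 (SE), adjusted p = 0.00058). For all 5, every photoconverted library was above every spleen library.

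Among lower genes were several of stem-like and memory cells. Of 20 tested members 4 were shared and lower, among them Lef1, Il6ra and Slamf6, and none higher, with a list median of -0.77. Lef1, a transcription factor of naive and memory T cells, measured 767, 673, 696 and 648 CPM in spleen, 272, 252, 342 and 337 CPM in egressed and 269, 126, 95.8 and 104 CPM in tumor-retained libraries (log2 fold change -1.72 ± 0.23 (SE), adjusted p = 0.0033). Il6ra, the interleukin 6 receptor, measured 133, 104, 126 and 98.9 CPM in spleen, 59.7, 41.6, 60.7 and 35.6 in egressed and 23.8, 19.8, 18 and 13.6 in tumor-retained libraries (log2 fold change -1.92 ± 0.21 (SE), adjusted p = 0.00082). All photoconverted libraries lay below spleen for both genes. Slamf6 fell from 325 ± 32.6 to 225 ± 19.1 and 124 ± 53.4 CPM (log2 fold change -0.96 ± 0.20 (SE), adjusted p = 0.03). Rasgrp2, which activates integrins through Rap1, averaged 259 ± 18.5, 187 ± 30 and 49.2 ± 22.1 CPM (log2 fold change -1.44 ± 0.23 (SE), adjusted p = 0.0072), and 2 of 16 tested homing and exit genes were shared and lower. Slamf6 lost its call without spleen 1, 2, 3 or 4 or egressed 2 or 4 or tumor-retained 4 (adjusted p up to 0.12). With the length and GC offset none of Lef1, Il6ra, Slamf6 and Rasgrp2 passed (adjusted p = 0.33, 0.26, 0.84 and 0.63), although each was still lower than spleen.

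Slc16a5, a member of the monocarboxylate transporter family, had the smallest p-value of the lower genes. It measured 72.7, 68.5, 70.1 and 52 CPM in spleen and 18.5, 36.9, 34 and 22.3 CPM in egressed libraries, and 2 counts were found over all 4 tumor-retained libraries (log2 fold change -6.45 ± 0.45 (SE), adjusted p = 7.3e-05). The fitted tumor-retained value rests on these 2 counts and depends on the prior count, so this average describes neither group alone. The spleen level was 4206 times the tumor-retained one, with an exact Poisson 95% interval of 1164 to 34730 that covers counting error only. Slc40a1, the iron exporter ferroportin, measured 12.3, 22, 5.84 and 4.4 CPM in spleen. It had no count in any egressed library or in tumor-retained libraries 2 and 3 and at most 0.0307 CPM in the others. Taking 3 counts over the group as the limit, spleen was at least 376-fold higher than egressed cells. This limit covers counting error only. In egressed libraries 3 and 4, 38.5% and 37.0% of tested genes had no count, against 1.1% to 2.1% in the spleen libraries. In all, 56 of the lower genes had no count in 4 or more photoconverted libraries, and 53 of these were under 10 CPM in spleen. Other lower genes included Kmt2d, a histone methyltransferase, at 384, 311, 329.6 and 329 CPM in spleen, 146, 137, 168 and 150.4 in egressed and 139.7, 125, 141 and 139.7 in tumor-retained libraries (log2 fold change -1.24 ± 0.10 (SE), adjusted p = 0.00017). Klf13, a zinc finger repressor and activator of T cell genes, showed the same even step, from 308 ± 22.7 to 146 ± 17.1 and 148 ± 15.9 CPM (log2 fold change -1.07 ± 0.11 (SE), adjusted p = 0.00069). Actn1, an actin crosslinker, averaged 95.7 ± 7.51, 34.3 ± 6.91 and 21.8 ± 7.13 CPM (log2 fold change -1.81 ± 0.23 (SE), adjusted p = 0.0023), and the thromboxane receptor gene Tbxa2r 127 ± 7.38, 28.1 ± 15.4 and 26.9 ± 11.4 CPM (log2 fold change -2.21 ± 0.34 (SE), adjusted p = 0.0063). The photoconverted libraries did not overlap spleen for these 4 genes. Ccnd3 (log2 fold change -0.79 ± 0.09 (SE), adjusted p = 0.0012) and Smc4 (log2 fold change -0.95 ± 0.11 (SE), adjusted p = 0.001), which act in the cell cycle, also fell. The list of cell cycle genes (20 tested) holds neither of them and had no shared gene. Its median was 0.42, or -0.25 without tumor-retained libraries 3 and 4, and 9 members lay above and 5 below spleen in both groups. Lower too were Vipr1, a receptor for vasoactive intestinal peptide (log2 fold change -1.44 ± 0.18 (SE), adjusted p = 0.0017), Cnp (log2 fold change -1.22 ± 0.13 (SE), adjusted p = 0.00066) and Fam65b (log2 fold change -1.20 ± 0.12 (SE), adjusted p = 0.00057).

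Some lower genes belong to the identity of the sorted or of other cells. Cd8b1, the beta chain of CD8, measured 1929, 1675, 1733 and 1637 CPM in spleen, 1351, 1457, 1314 and 1351 in egressed and 1120, 1012, 579 and 636 in tumor-retained libraries (log2 fold change -0.70 ± 0.16 (SE), adjusted p = 0.043), and Cd3e of the T cell receptor complex averaged 654 ± 82.5, 329.9 ± 38.6 and 382 ± 126 CPM (log2 fold change -0.88 ± 0.17 (SE), adjusted p = 0.023). Cd8b1 lost its call without spleen 1, 2, 3 or 4 or egressed 1, 2, 3 or 4 or tumor-retained 4 (adjusted p up to 0.16) and with the mouse block (0.063). Cd3e lost its call without spleen 1, 2 or 3 or egressed 2 or 4 (adjusted p up to 0.11) and with the mouse block (0.063). Ighm, the immunoglobulin mu chain and a B cell marker, measured 773, 692, 622 and 660.5 CPM in spleen, 609.9, 669, 592 and 588 in egressed and 103, 131, 106 and 117 in tumor-retained libraries (log2 fold change -1.37 ± 0.10 (SE), adjusted p = 7.3e-05). Its egressed libraries overlapped spleen, so its place in the shared set rests on tumor-retained cells. The defining B cell markers Cd79a and Ms4a1 were at most 2.06 and 3.52 CPM in spleen, 9.49 and 5.03 in egressed and 0.547 and 2.47 in tumor-retained libraries. The whole B cell list (16 tested genes) summed to 685 to 951 CPM in spleen, 636 to 1044 CPM in egressed, 122 and 243 CPM in tumor-retained libraries 1 and 2 and 1945 and 3070 CPM in libraries 3 and 4, where its class II genes, which macrophages and dendritic cells also express, were high (Cd74 at 695 and 1082 CPM). H2-Ob, a class II chaperone gene of B cells, fell as well (log2 fold change -1.84 ± 0.28 (SE), adjusted p = 0.0057).

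Lower genes had longer transcripts than higher genes. The longest annotated transcript had a median of 2216 bases among higher, 3999 among lower and 3454 among tested genes with a mean of at least 10 CPM, and the median GC content was 47.9%, 51.8% and 49.1%. Over tested genes of at least 10 CPM, the median log2 fold change of the photoconverted average was 0.13 for transcripts under 1500 bases and -0.36 for those of 5000 bases or more. After a smooth offset per library for transcript length and GC content, 87 of 132 higher and 46 of 287 lower genes still passed, Kmt2d (adjusted p = 0.82) and Klf13 (0.74) not among them. Slc16a5 (0.0003), Ighm (0.009) and Slc40a1 (0.0067) passed with it. Of the other named genes, Nfkbid, Ctla4, Tnfrsf18, Slamf7, Isg20, Mx1, Aldoa, Serpinb6b and Bcl2a1b of the higher side did not pass with it (adjusted p = 0.059 to 0.17), nor did Ccnd3, Smc4, Vipr1, Actn1, Cd8b1, Cd3e, H2-Ob, Tbxa2r, Il17ra, Nsg2, Dtx1, Fam117a, Cnp, Ltb, Il16, Il6st, Nfatc2 and Dusp7 of the lower side (0.072 to 1). The noncoding transcript Gm26917 and the ribosomal RNA-like Rn18s-rs5 also differed in level, with 12160 to 25990 CPM of Gm26917 in spleen, 4891 to 9911 CPM in egressed and 2709 to 5122 CPM in tumor-retained libraries. The part of RNA quality or input in these differences was not tested.

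**Figure D4:**
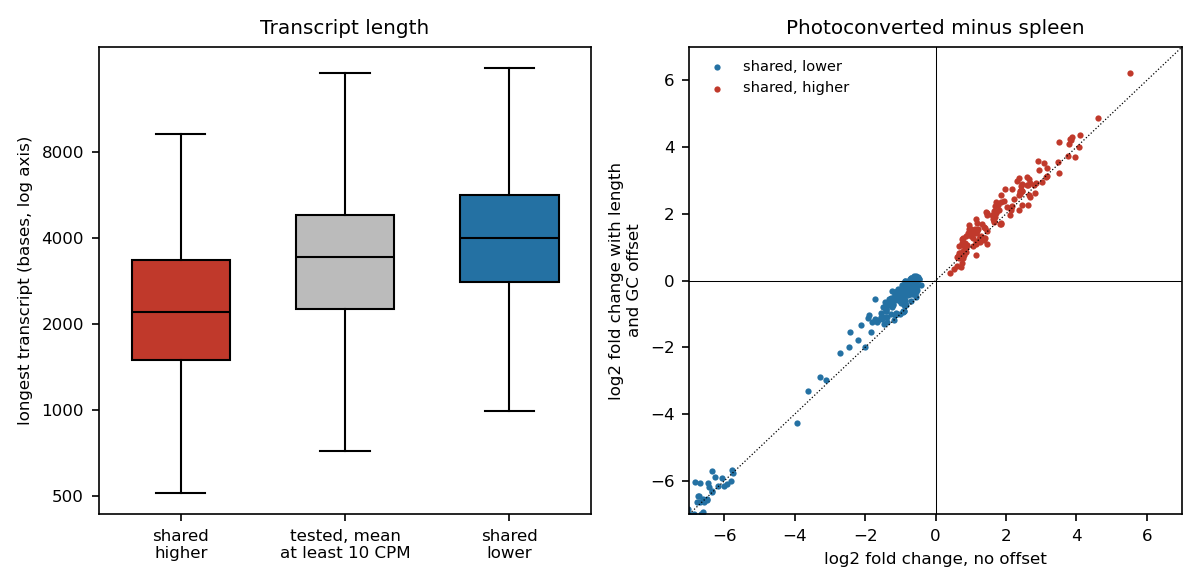
Left, longest annotated transcript in bases on a log axis for shared higher genes, tested genes with a mean of at least 10 CPM and shared lower genes (box, quartiles with the median; whiskers to the last value within 1.5 box heights). Right, log2 fold change of the photoconverted average against spleen with the length and GC offset (vertical) and without it (horizontal), with equality dotted; most lower genes move toward 0 and 33 shared genes fall outside the axes.

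Tumor-retained and egressed cells were then compared directly, a contrast that uses no spleen library but the same photoconverted libraries that chose the shared genes. Of the 419 shared genes 80 differed at an adjusted p under 0.05, or 19.1%, where 1.1% of all tested genes did. Some shared genes passed through the tumor-retained group alone, so the choice of members can raise this share and nothing is read from it. With the mouse block 37 shared genes differed. Tumor-retained cells were further from spleen at 42 of the 43 such higher genes and 36 of the 37 such lower genes. Litaf had a tumor-retained minus egressed log2 difference of 4.10 (95% interval 3.16 to 5.04, adjusted p = 0.0014), Gzmb of 3.82 (2.93 to 4.72, 0.0015) and Pdcd1 of 3.48 (2.47 to 4.50, 0.0065). Bhlhe40 (2.88, 1.96 to 3.79), Capg, an actin capping protein (2.61, 1.90 to 3.32), Klrk1 (1.88, 1.26 to 2.49), Srgn (1.47, 1.07 to 1.88) and Bcl2l11 (1.83, 1.31 to 2.34) were also higher in the tumor. On the lower side, Dtx1, a Notch pathway ubiquitin ligase (-4.31, -5.61 to -3.02), Fam117a (-2.06, -2.68 to -1.44), Nsg2 (-1.62, -2.08 to -1.15) and Fam65b (-1.39, -1.70 to -1.07) were further down in the tumor. Jun was the higher gene with the opposite order (-1.23, -1.80 to -0.66, adjusted p = 0.047). Dtx1 lost its call without spleen 1 or 3 (adjusted p up to 0.062) and with the mouse block (0.051).

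Other shared genes did not pass in this contrast, and their intervals give the range of the difference. Narrow intervals were found for Atf4 (-0.30 to 0.25 on the log2 scale), Klf13 (-0.27 to 0.32), Kmt2d (-0.41 to 0.13) and Fos (-0.73 to 0.17). Nfkbiz (-0.63 to 0.33), Cd160 (-0.56 to 0.49), Dusp1 (-0.58 to 0.71) and Nfkbid (-0.52 to 0.71) had wider ones that included 0, and that of Hspa1a (-1.27 to 1.12) allows more than a 2-fold difference in either direction. Tnfaip3 (0.94, 0.26 to 1.62, adjusted p = 0.15) and Rgs1 (1.15, 0.57 to 1.73, adjusted p = 0.067) were higher in the tumor but did not pass over all genes.

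**Figure D5:**
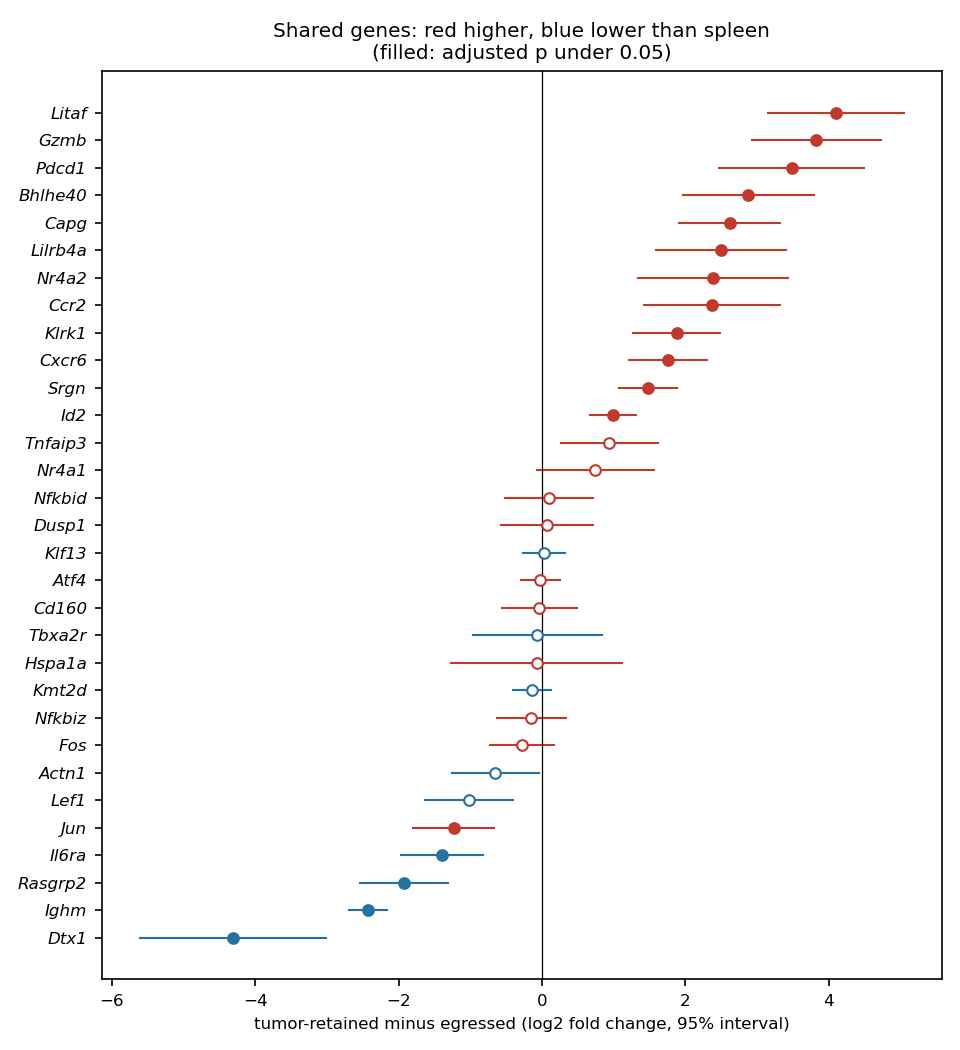
Tumor-retained minus egressed log2 fold change with its 95% interval for 31 shared genes, red where the gene is higher and blue where it is lower than spleen, with filled points at an adjusted p under 0.05. Litaf, Gzmb and Pdcd1 stand at the top, genes from Nfkbid to Fos lie around 0, and Rasgrp2, Ighm and Dtx1 at the bottom.

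Several genes of tissue exit, homing and residence were not in the shared set. Klf2, a transcription factor that sustains tissue exit, averaged 663 ± 31.3 CPM in spleen, 664 ± 88 in egressed and 192 ± 85.8 in tumor-retained cells, and the photoconverted average did not pass (log2 fold change -0.89 ± 0.22 (SE), adjusted p = 0.061), while egressed and tumor-retained cells differed (log2 difference -1.79, -2.37 to -1.22, adjusted p = 0.0092). S1pr1, the receptor for exit along sphingosine 1-phosphate, had a photoconverted average of -0.57 ± 0.22 (SE) (adjusted p = 0.27), Ccr7, which guides cells to lymph nodes, of -0.46 ± 0.29 (SE) (0.63) and Tcf7, a factor of stem-like cells, of -0.74 ± 0.21 (SE) (0.11). Cxcr4 (0.29 ± 0.43 (SE), 0.99), Cd69, which retains cells by opposing S1pr1 (1.05 ± 0.27 (SE), 0.084), and the integrin Itgae (0.45 ± 0.31 (SE), 0.7) did not pass either. Without tumor-retained libraries 3 and 4, the average of Klf2 (adjusted p = 0.012), Tcf7 (0.027) and Cd69 (0.011) passed. A pass of the average alone does not make a gene shared, and Klf2 averaged 664 CPM in egressed cells against 663 CPM in spleen. Some lists had no shared gene, namely oxidative phosphorylation (22 tested), cell cycle (20), ribosomal proteins (22), Gimap GTPases (8), integrins (16) and amino acid and glucose transporters (13). At the threshold, the last gene inside was Rpl9-ps1 (adjusted p = 0.04983, log2 fold change -3.93) and the first outside was Selk (0.05002, 0.66).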

How the data were processed

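The authors deposited raw counts per gene symbol for 12 libraries and a log2 table, which equals log2(count / size factor + 1) within 5.03e-09 of the counts and was not tested. Per the labels' protocols, RNA was taken up in Takara lysis solution and libraries were made with the SMART-Seq v4 kit, which copies polyadenylated RNA at full length and adds no molecular identifiers, so that the limits set by 3 counts and the Poisson interval reflect counting alone. No source states a stranded protocol, and overlapping genes may share counts. Tools named in the submitters' processing notes, with no role given, are STAR 2.7.3a, Bowtie2 2.5.1, cutadapt 2.5 and Cufflinks 2.2.1, with the build mm10 and with the counting program and annotation not given in the sources used here.

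Groups were taken from the labels, and every column was matched to a sample. The 3 tissues of 4 mice carry the same 4 library numbers, with the same number skipped, which is taken to mark the mouse although the labels do not state it. Deviations from group means of same-numbered libraries correlated at -0.22 to 0.18, and 2 of 12 libraries correlated best with their own number. Values with the mouse block are given where they end a call. Counts were filtered with filterByExpr by group, scaled with TMM and fitted with edgeR 4.0.16 (R 4.3.3) in a quasi-likelihood model of 3 groups, with Benjamini-Hochberg adjustment over 21457 tested genes at 0.05. With 9 residual degrees of freedom, the fit had a common biological coefficient of variation of 1.21. CPM are scaled by TMM library size, and means carry SDs. Standard errors of fold changes are the absolute log2 fold change divided by the square root of the F statistic of its test. The 95% intervals are built from these standard errors with the t distribution. DESeq2 1.42.0, limma 3.58.1, other scalings and filters, the replicate block and each library left out were alternatives. The script was tested on simulated counts with known changes. Positions, transcript length and GC content came from GENCODE M21, where 96.0% of symbols were found, and promoters from RefSeq (GRCm38.p6). Of the symbols, 27 had been turned into dates and are not named, and some other genes are not reported here.

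The members and the 45 gene lists were chosen with earlier results of these data known, so lists are described by counts and medians with no test; the kappa B and CArG motifs and the length and GC offset were added later. Genes named were the 12 largest and 12 smallest fold changes among shared, fully separated genes of at least 10 CPM, the 10 smallest p per direction, up to 4 shared genes per list, the exit and residency genes, and 6 per direction by tumor-retained against egressed, with marker genes; members of list counts and genes with few counts are named beside them.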

Additional observations from a re-analysis of the deposited data

Results flagged for a closer look

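Tumor-retained and egressed cells differed at 37 of the shared genes printed in the text, by the test of the difference itself (edgeR, adjusted p under 0.05). Some of the printed genes were named because of their result in this same contrast. The choice of genes therefore sets part of this number, and nothing is read from it. The log2 differences, tumor-retained minus egressed, were Litaf 4.10, Gzmb 3.82, Pdcd1 3.48, Bhlhe40 2.88, Capg 2.61, Lilrb4a 2.5, Lilr4b 2.47 and Nr4a2 2.39. Further log2 differences were Ccr2 2.37, Bcl2a1d 2.25, Klrk1 1.88, Bcl2l11 1.82, Klrc1 1.81, Cxcr6 1.76, Mxd1 1.71 and Odc1 1.57. Smaller ones were Ikzf2 1.55, Ifngr1 1.49, Srgn 1.48, Tgif1 1.41, Tnfrsf18 1.34, Gapdh 1.26, Aldoa 1.20 and Id2 0.99. The smallest positive ones were Ly6a 0.88. Negative log2 differences were Ccnd3 -0.72, Smc4 -0.91, Jun -1.23, Fam65b -1.39, Il6ra -1.39, Vipr1 -1.54, Nsg2 -1.62 and Rasgrp2 -1.92. Further negative ones were Fam117a -2.06, Ighm -2.43, Dtx1 -4.31 and Slc16a5 -10.43. The fitted value of Slc16a5, which had 2 counts over the tumor-retained libraries, depends on the prior count and is no bound. Of genes outside the shared set, Por had a difference of 1.34, Klf2 had a difference of -1.79 and Dapl1 had a difference of -4.14.

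In 16 of 309 groups of 4 libraries examined for the printed genes, 1 library stood apart from the other 3, by Dixon's test for 4 values at the 95% level. Chance alone gives about 1 in 20 such groups, and no pattern is read from them. In CPM, with the other 3 libraries given as a range, these were Tnfaip3 in spleen library 1 (166 against 132 to 137), Nfkbiz in egressed library 4 (428 against 267 to 292), Bhlhe40 in spleen library 2 (22 against 10.3 to 12.3) and Cd160 in spleen library 2 (95.6 against 55.6 to 62.1). Others were Ccl4 in spleen library 1 (28.8 against 20.3 to 21.6), Klrd1 in spleen library 4 (236 against 213 to 217), Bcl2a1d in egressed library 2 (30.8 against 13.1 to 14.3) and Bcl2l11 in tumor-retained library 3 (270.2 against 396 to 409). There were also Hspa1b in tumor-retained library 3 (3363 against 732 to 856), Ifngr1 in spleen library 1 (534 against 557 to 561), Rasgrp2 in spleen library 2 (232 against 266 to 273) and Kmt2d in tumor-retained library 2 (125 against 139.7 to 141). The remaining ones were S1pr1 in spleen library 4 (616 against 807 to 827), Ccr7 in spleen library 3 (958 against 829.5 to 846), Dapl1 in tumor-retained library 2 (31.7 against 9.19 to 12) and Zfas1 in spleen library 3 (39.3 against 27.4 to 28).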

How the results depend on the processing

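Counts are given in 1 order: genes changed, shared genes higher, shared genes lower, and shared genes that differed between tumor-retained and egressed cells. They were 421, 132, 287 and 80 as reported. They were 332, 184, 145 and 77 with median-of-ratios size factors, 359, 152, 205 and 84 with library size alone, 231, 107, 123 and 62 with no filter on low counts and 453, 285, 161 and 142 among genes with a mean of at least 10 CPM. DESeq2 gave 952, 633, 291 and 305, limma voom with quality weights 2951, 518, 2381 and 91 and a model of 2 groups 184, 59, 125 and 13. Leaving out tumor-retained libraries 3 and 4 gave 483, 153, 292 and 104, and leaving out the 3 libraries with the fewest genes gave 959, 317, 623 and 135. With 1 library left out at a time, the counts ranged from 120 to 592 changed, 55 to 171 higher, 64 to 439 lower and 35 to 124 that differed, the lowest number of changed genes being that without spleen library 1. The transcript length and GC offset, chosen after seeing the data, gave 144, 97, 46 and 24. The cause of these moves was not tested, apart from the smaller number of libraries or genes that some of the analyses hold by construction.

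With the replicate block the counts were 180, 73, 106 and 37, and all 54 higher and 61 lower genes that passed every leave-one-out analysis passed with it. It ended the calls of 28 of the 96 followed genes that pass, named beside their values apart from Slamf7 (0.12). The replicate block with the length and GC offset, also chosen after seeing the data, gave 41, 39, 2 and 4.

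For the 103 genes printed or listed by name, 2002 of the values under 24 alternatives kept direction and side of the threshold, 453 kept direction and no longer passed, 16 newly passed and none changed direction. A depth of 22734926 to 36291712 counts limits genes near 3 counts, or 0.0827 to 0.132 CPM.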

Other observations

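Smaller groups of shared genes came from lists not described above. Of 20 tested interferon response genes, Isg20 (log2 fold change 1.45 ± 0.29 (SE), adjusted p = 0.026) and Mx1 (log2 fold change 1.45 ± 0.30 (SE), adjusted p = 0.028) were higher and Ifi47 was lower. Isg20 lost its call without spleen 1, 2, 3 or 4 (adjusted p up to 0.12) and with the mouse block (0.11). Mx1 lost its call without spleen 1, 2, 3 or 4 or tumor-retained 4 (adjusted p up to 0.13) and with the mouse block (0.072). Of 17 glycolysis genes Aldoa (log2 fold change 0.64 ± 0.15 (SE), adjusted p = 0.046) and Gapdh (log2 fold change 0.86 ± 0.15 (SE), adjusted p = 0.012) were higher in the average, and tumor-retained cells alone passed at 8 and egressed cells at 0. The list's median log2 fold change was -0.22 in egressed and 1.245 in tumor-retained cells. Aldoa and Gapdh were higher in tumor-retained than in egressed cells, by log2 differences of 1.20 and 1.26. The list summed to 8298 and 7104 CPM in tumor-retained libraries 1 and 2. It summed to 12540 and 14340 CPM in libraries 3 and 4, which hold the most macrophage and stromal transcripts. Without libraries 3 and 4 its median log2 fold change fell from 0.51 to 0.03, and that of all tested genes from -0.19 to -0.46. Aldoa lost its call without spleen 1, 2, 3 or 4 or egressed 1, 3 or 4 or tumor-retained 3 or 4 (adjusted p up to 0.19), with the mouse block (0.11) and without both tumor-retained libraries 3 and 4 (0.066). Gapdh lost its call without spleen 1, 2, 3 or 4 (adjusted p up to 0.07) and with the mouse block (0.058). Of 19 interleukin receptor genes 3 were lower, namely Il6ra, its signalling partner Il6st (log2 fold change -1.02 ± 0.21 (SE), adjusted p = 0.026) and Il17ra (log2 fold change -0.96 ± 0.19 (SE), adjusted p = 0.024). Il6st lost its call without spleen 1, 2, 3 or 4 or egressed 2 (adjusted p up to 0.12) and with the mouse block (0.062). Il17ra lost its call without spleen 1, 2, 3 or 4 (adjusted p up to 0.097). The antigen receptor response list (18 tested) had 4 higher genes, the 3 Nr4a genes and Nfkbid, and Nfatc2 lower (log2 fold change -0.76 ± 0.17 (SE), adjusted p = 0.041). Nfatc2 lost its call without spleen 1, 2, 3 or 4 or egressed 1, 2 or 4 or tumor-retained 1, 2 or 3 (adjusted p up to 0.19) and with the mouse block (0.12). The lists of mRNA decay regulators (Zc3h12d), SOCS and STAT genes (Pim2), hypoxia response (Pdk1), cholesterol synthesis (Srebf2) and MHC class I genes (Tapbp) had 1 lower shared gene each and no higher one. Their list medians were 0.28, 0.08, 1.04, -0.25 and -0.14, in this order. The hypoxia list (16 tested) had a median of -0.26 in egressed and 2.02 in tumor-retained cells. Tested alone, tumor-retained cells passed at 4 higher genes and 1 lower gene of it, and egressed cells at 0. Without tumor-retained libraries 3 and 4 its median was 0.23. The TGF-beta list had Tgif1 higher and Ski lower, and 1 of the circulating effector genes was higher (Ccr2) and 1 lower.

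Small nucleolar RNA host genes, singled out after their values were seen, were present in the higher set as Gas5, Snhg5 and Zfas1. Gas5 measured 207, 194, 217 and 222 CPM in spleen, 398, 336, 453 and 438 CPM in egressed and 301, 241, 299 and 252 CPM in tumor-retained libraries (log2 fold change 0.67 ± 0.12 (SE), adjusted p = 0.014). Snhg5 averaged 28.1 ± 4.99, 62.5 ± 14.9 and 83.5 ± 23.1 CPM (SD, n = 4; log2 fold change 1.36 ± 0.26 (SE), adjusted p = 0.019) and Zfas1 30.5 ± 5.87, 76.5 ± 17.1 and 60.7 ± 5.25 CPM (log2 fold change 1.16 ± 0.22 (SE), adjusted p = 0.018). Gas5 lost its call without spleen 1, 2, 3 or 4 (adjusted p up to 0.09). Snhg5 lost its call without spleen 1, 2, 3 or 4 (adjusted p up to 0.11) and with the mouse block (0.089). Zfas1 lost its call without spleen 1, 2 or 4 (adjusted p up to 0.11) and with the mouse block (0.064). Their adjusted p with the length and GC offset was 0.23, 0.15 and 0.096.

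The genes that passed with the photoconverted groups on opposite sides of spleen were Dapl1, an epithelial differentiation gene also known from stem-like T cells, and Por, the cytochrome P450 reductase. Dapl1 averaged 260.0 ± 28.6 CPM in spleen, 279.6 ± 69.7 in egressed and 15.8 ± 10.6 in tumor-retained cells, and Por averaged 99.9 ± 10.3, 96.1 ± 12.7 and 244 ± 35.8 CPM. The egressed group differed from spleen by less than 1 SE in both (log2 fold change 0.10 ± 0.35 (SE) and -0.06 ± 0.16 (SE)). Por lost its call without spleen 1, 2, 3 or 4 or egressed 1, 3 or 4 or tumor-retained 1, 3 or 4 (adjusted p up to 0.24), with the mouse block (0.093) and without both tumor-retained libraries 3 and 4 (0.1).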
